A study of Homo sapiens with 4 samples.

Results

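The replication-dependent histone genes make the bulk of the chromatin proteins during S phase, and they lie in clusters rather than singly. Open chromatin over these clusters was compared here between 4 established human cancer cell lines. Members were all peaks whose summit fell in 1 of 3 windows of the hg19 build: chromosome 6, 26010000 to 26290000 (the large cluster), chromosome 6, 27770000 to 27870000 (the small cluster), and chromosome 1, 149800000 to 149870000. The windows held 255 of the 295586 peaks on chromosomes 1 to 22 and X. Merged across lines wherever they overlapped by at least 1 bp, they formed 82 of 167619 regions. Peaks were taken by position alone and not by pileup, fold or the lines that called them.

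The lines were SKBR3 and T47D, labelled breast cancer, and HCT116 and RKO, labelled colorectal cancer, all labelled WT, with no treatment named. McCoy's 5A was the medium of SKBR3 and HCT116, RPMI that of T47D and DMEM that of RKO. Each line gave 1 ATAC-seq library, an assay in which a transposase cuts and tags accessible DNA, read as single ends of 60 bp. Tags left after removal of duplicate positions numbered 4313512 for SKBR3, 5450100 for T47D, 1057628 for HCT116 and 3262240 for RKO, with duplicates at 47% and 49% in the breast lines and 63% in both colorectal lines. There are no replicates, so no difference between lines was tested, and intervals are exact Clopper-Pearson 95% intervals that cover counting error only. A region without a call at the depth of the HCT116 library need not be closed there.

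Histone genes of this kind code for the linker histone H1 and the core histones H2A, H2B, H3 and H4. The core histones form the octamer around which DNA is wound, and H1 binds the DNA that enters and leaves it. Transcription of the clusters takes place in histone locus bodies, which gather around the protein NPAT, and the messages end in a stem-loop instead of a poly(A) tail. RefSeq (GRCh38.p14) lists 59 protein-coding histone genes between the outermost histone genes of the 3 clusters: 6 of H1, 13 of H2A, 14 of H2B, 13 of H3 and 13 of H4. The large cluster, from H1-1 to H4C8, holds 32 of them, the small cluster, from H2BC13 to H2BC17, 16, and the cluster on chromosome 1, from H2BC18 to H2AC21, 11. The neighbours listed among them in the large cluster include HFE, a regulator of iron uptake, with its antisense RNA HFE-AS1, and a set of histone pseudogenes. The peaks carry hg19 positions and no hg19 annotation was used here, so no peak is assigned to a gene. The gene lists are bounded by the outermost genes named and not by the hg19 windows, so a listed gene can lie outside its window. On chromosome 1, H2BC18 and H3C13 stand before H4C14 in gene order, and whether the window reaches them was not checked. The gene and promoter counts keep all 59 genes.

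Promoter sequences show what the genes of the clusters share. RefSeq promoters (GRCh38.p14, 250 bases before to 50 after the annotated start) were found for 55 of the 59 genes; H3C11, H3C12, H4C1 and H4C3 had none in the table used. One promoter per histone type is shown, in 5′ to 3′ direction of the gene. The H4, H3 and H2A examples come from the mirrored gene pairs of chromosome 1 described further on, and the H1 and H2B examples are the first genes of their type in the chromosome 6 clusters with most of the motifs searched. Capitals mark the TATA box (TATAAA), the CCAAT box (CCAAT), the octamer known from H2B promoters (ATTTGCAT), the H1 box (AAACACA) and the AP-1 letters bound by FOS and JUN proteins (TGANTCA), on either strand.
H4C14 (H4, chromosome 1, plus strand): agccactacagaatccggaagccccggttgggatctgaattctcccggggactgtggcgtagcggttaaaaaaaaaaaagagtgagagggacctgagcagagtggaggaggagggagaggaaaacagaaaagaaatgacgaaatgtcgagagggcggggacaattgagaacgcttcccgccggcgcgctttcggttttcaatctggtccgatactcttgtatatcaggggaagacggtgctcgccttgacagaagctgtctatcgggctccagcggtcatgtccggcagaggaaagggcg
H3C14 (H3, chromosome 1, minus strand): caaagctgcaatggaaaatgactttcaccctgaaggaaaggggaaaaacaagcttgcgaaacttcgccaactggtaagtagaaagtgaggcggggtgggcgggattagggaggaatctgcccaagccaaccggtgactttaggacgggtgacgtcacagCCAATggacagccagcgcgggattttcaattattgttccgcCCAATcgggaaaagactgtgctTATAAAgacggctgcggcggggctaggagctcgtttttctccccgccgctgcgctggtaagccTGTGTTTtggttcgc
H2AC18 (H2A, chromosome 1, minus strand): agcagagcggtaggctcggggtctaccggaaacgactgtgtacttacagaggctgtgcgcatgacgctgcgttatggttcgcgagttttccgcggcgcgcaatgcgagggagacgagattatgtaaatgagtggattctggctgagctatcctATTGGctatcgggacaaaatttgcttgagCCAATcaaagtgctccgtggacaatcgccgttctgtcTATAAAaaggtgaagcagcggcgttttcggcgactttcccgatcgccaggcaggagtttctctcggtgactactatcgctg
H1-1 (H1, chromosome 6, minus strand): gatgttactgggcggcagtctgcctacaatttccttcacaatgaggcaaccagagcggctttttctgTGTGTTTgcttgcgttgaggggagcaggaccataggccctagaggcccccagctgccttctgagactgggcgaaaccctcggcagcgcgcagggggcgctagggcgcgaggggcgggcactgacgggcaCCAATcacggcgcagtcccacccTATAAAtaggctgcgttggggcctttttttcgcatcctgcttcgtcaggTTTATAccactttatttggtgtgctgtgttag
H2BC3 (H2B, chromosome 6, minus strand): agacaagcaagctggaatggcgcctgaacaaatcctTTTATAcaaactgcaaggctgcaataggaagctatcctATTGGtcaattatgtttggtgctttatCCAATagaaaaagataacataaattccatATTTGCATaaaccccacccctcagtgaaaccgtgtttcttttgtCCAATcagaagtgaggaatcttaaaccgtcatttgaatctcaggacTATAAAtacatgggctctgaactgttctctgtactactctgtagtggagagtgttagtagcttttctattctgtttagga

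The motifs divided the genes by histone type. CCAAT was present in all 6 H1, 13 H2A, 14 H2B and 11 H3 genes with a sequence, but in 2 of 11 H4 genes (H4C6 and H4C13), against 39.7% of the 27305 genes in the promoter table. TATAAA was found in 37 of 55 histone genes (67.3%, 53.3 to 79.3), against 13.99% of all genes. The octamer stood in 11 of 14 H2B and 9 of 13 H2A genes, in 1 H3 gene (H3C4) and in no H1 or H4 gene, against 2.19% of all genes. H2A and H2B genes often lie head to head, so 1 octamer can fall in the windows of both. The H1 box was found in 6 of 6 H1 genes, in H2AC20, H3C14 and H3C15 and in no H2B or H4 gene, against 6.94% of all genes. The AP-1 letters were found in 1 histone gene, H3C8, or 1.82% (0.0460 to 9.72), against 9.37% of all genes. No match says only that these letters are not in the 300 bases searched.

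The clusters were densely called in every line. SKBR3 had 70 peaks in the 450 kb, T47D 73, HCT116 44 and RKO 68, or 15.6, 16.2, 9.78 and 15.1 peaks per 100 kb. The order of the lines differed from that of the whole lists only in that T47D, with 73, stood before SKBR3, with 70. In the whole lists SKBR3 led with 111635 peaks, followed by T47D with 77458, RKO with 66594 and HCT116 with 39899. As a share of its own list the clusters took 0.0627% (0.0489 to 0.0792) of the peaks for SKBR3, 0.0942% (0.0739 to 0.118) for T47D, 0.110% (0.0801 to 0.148) for HCT116 and 0.102% (0.0793 to 0.129) for RKO. The interval of SKBR3 overlapped that of T47D and ended just below those of HCT116 and RKO, at 0.0792 against 0.0801 and 0.0793. The intervals of the other 3 lines overlapped each other. Such intervals take neighbouring peaks of 1 library as separate draws, and the share depends on the length of the list. No difference between lines is read from them. The large cluster held 47 peaks for SKBR3, 44 for T47D, 25 for HCT116 and 42 for RKO. The small cluster held 12, 17, 9 and 13 in the same order of lines, and the cluster on chromosome 1 held 11, 12, 10 and 13. HCT116 had the lowest count of the 4 lines in every cluster. Its count came close to the others on chromosome 1, where mirrored copies, described further on, may count some sequences more than once. With every list shortened to its strongest 39899 peaks by q, the clusters held 44 peaks for SKBR3, 56 for T47D, 44 for HCT116 and 59 for RKO.

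**Figure D1:**
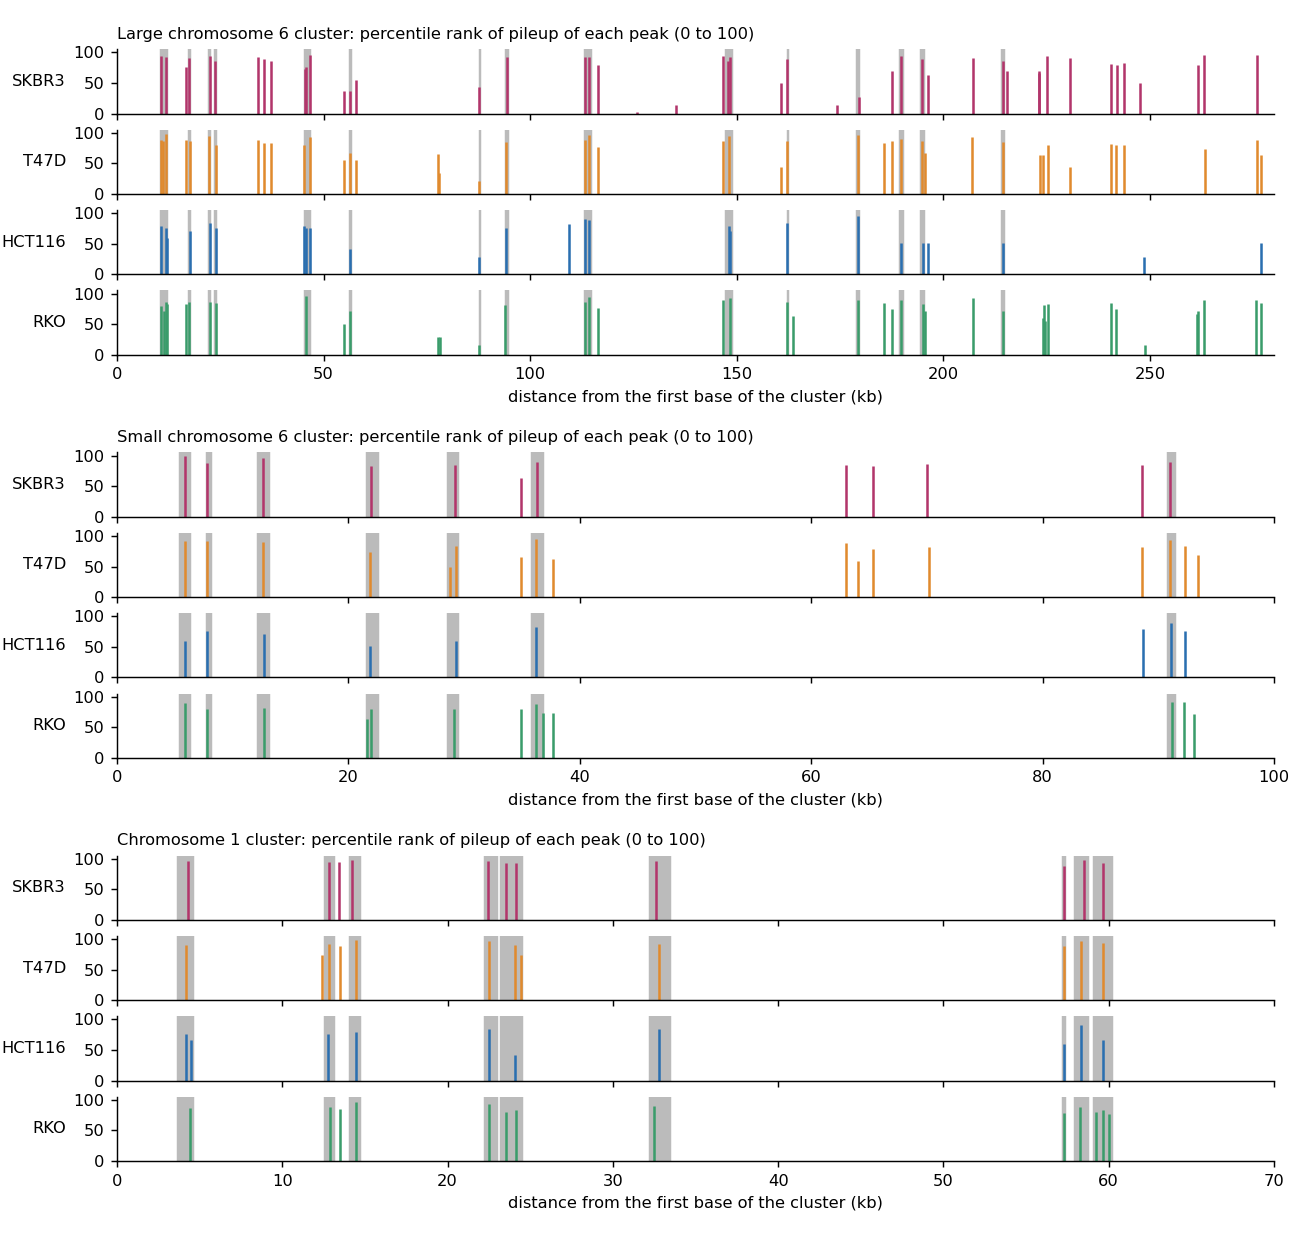
Every peak of the 3 clusters, with distance from the first base of the cluster in kb on the x axis and the percentile rank of its pileup within the list of its own line on the y axis (0 to 100), for 1 library per line. Grey bands are the 33 regions called in all 4 lines. In the small cluster, SKBR3 and T47D have peaks near 63 to 70 kb where HCT116 and RKO have none.

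Regions called in all 4 lines made up 33 of the 82 regions in the clusters (40.2%, 29.6 to 51.7), against 11.8% of all merged regions. Regions called in 1 line numbered 13 (15.9%, 8.72 to 25.6), against 60% of all merged regions. Another 16 regions were called in 3 lines (19.5%, 11.6 to 29.7), against 8.22% of all merged regions. The 20 regions called in 2 lines (24.4%, 15.6 to 35.1) were near the background of 20.0%. The share called in all lines was 17 of 54 (31.5%, 19.5 to 45.6) in the large cluster, 7 of 17 (41.2%, 18.4 to 67.1) in the small cluster and 9 of 11 (81.8%, 48.2 to 97.7) on chromosome 1. Strong regions differed less from the whole series. Among regions whose pileup ranked at 75 or higher in at least 1 line, 31 of 58 in the clusters (53.4%, 39.9 to 66.7) were called in all 4 lines, against 39.3% of all such regions. With −log10 q held to 10 or more the share was no longer above that of all regions: 5 of 56 cluster regions (8.93%) were then called in all 4 lines, against 12.0% of all merged regions. That threshold was passed by 38 of 70 cluster peaks for SKBR3 (54.3%, against 30% of its list), 55 of 73 for T47D (75.3%, against 48.2%), 6 of 44 for HCT116 (13.6%, against 25.1%) and 35 of 68 for RKO (51.5%, against 30.9%).

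**Figure D2:**
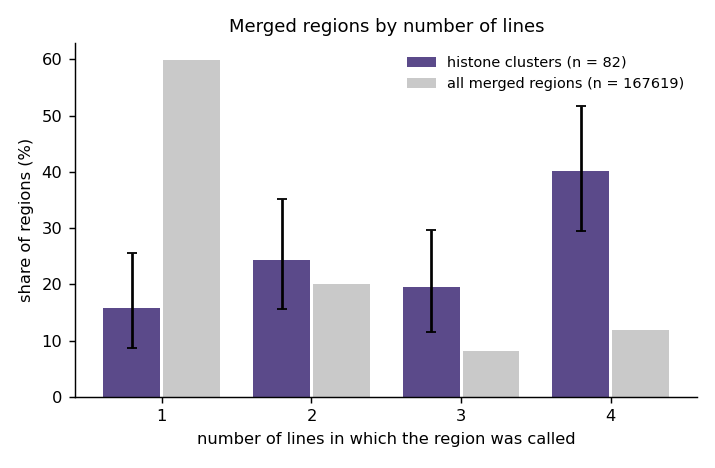
Share of merged regions in percent (y axis) by the number of lines in which the region was called (x axis), for the 82 regions of the histone clusters and for all 167619 regions. Error bars on the cluster bars are exact 95% binomial intervals. In the clusters the highest bar is that for 4 lines, at 40.2%, and over all regions that for 1 line, at 60%.

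Each line but HCT116 was called at most of the cluster regions: SKBR3 at 65 of 82, T47D at 69, HCT116 at 39 and RKO at 60. These are 79.3% of the cluster regions for SKBR3, against 65.4% of all merged regions, 84.1% for T47D, against 45.3%, 47.6% for HCT116, against 22.7%, and 73.2% for RKO, against 38.4%. Of the regions called in either SKBR3 or T47D, both lines called 58, or 76.3% (65.2 to 85.3), against 37.7% over all merged regions. T47D and RKO shared nearly as large a part, 54 regions or 72% (60.4 to 81.8), against 28.3% over all regions, and the labels give them different cancers. HCT116 and RKO shared 36 regions, 57.1% (44.05 to 69.5), against 34.1%. The other pairs were SKBR3 and RKO with 60.3% (48.5 to 71.2), against 22.7%, SKBR3 and HCT116 with 50.7% (38.4 to 63.0), against 22.8%, and T47D and HCT116 with 50% (37.98 to 62.02), against 29.7%. Of the 39 HCT116 regions in the clusters, 35 were also called in SKBR3 (89.7%, against 72.0% of all HCT116 regions), 36 in T47D (92.3%, against 68.6%) and 36 in RKO (92.3%, against 68.5%).

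Pileup, the number of tags stacked at a summit, is not scaled between libraries, so peaks were compared by their percentile rank within their own list. The median cluster peak ranked at 87.5 for SKBR3 (exact 95% interval of the median 84.3 to 91.4), 84.9 for T47D (80.3 to 88.0), 75.2 for HCT116 (65.5 to 78.8) and 82.6 for RKO (80.0 to 84.9). In tags, the median pileup was 23 in the SKBR3 clusters against 7 over the SKBR3 list, 34 against 11 for T47D, 10 against 6 for HCT116 and 20 against 7 for RKO. Peaks of rank 75 or higher numbered 53 of 70 for SKBR3, where 24.1% of the whole list ranked so high, 52 of 73 for T47D, against 24.5% of its list, 25 of 44 for HCT116, against 26.8%, and 50 of 68 for RKO, against 25.6%. Peaks in the lower 50% of the list by pileup numbered 7 for SKBR3, 5 for T47D, 4 for HCT116 and 4 for RKO. Cluster peaks were also wide, with a median of 440.5 bp for SKBR3 against 199 bp over the list, 395 bp for T47D against 211 bp, and 290 bp for RKO against 168 bp. In HCT116 they were 200.5 bp wide against 168 bp.

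Fold enrichment, the authors' ratio of pileup to local background, gave another order. By fold the median cluster peak ranked at 58.2 for SKBR3 (48.8 to 62.8), 41.8 for T47D (37.0 to 53.1), 60.7 for HCT116 (53.4 to 63.9) and 55.2 for RKO (44.5 to 66.4), and the interval of every line but HCT116 took in the middle of the list, 50. The local background recovered from pileup and fold ranked at a median of 95.4 for SKBR3, 95.2 for T47D, 92.0 for HCT116 and 94.3 for RKO. That background is taken over 10 kb around a peak and includes the neighbouring peaks of a crowded cluster; their part in it was not tested. On chromosome 1, SKBR3 peaks ranked at a median of 95.1 by pileup and 41.9 by fold, T47D peaks at 90.7 and 29.6, HCT116 peaks at 75.2 and 60.8, and RKO peaks at 84.9 and 42.0.

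**Figure D3:**
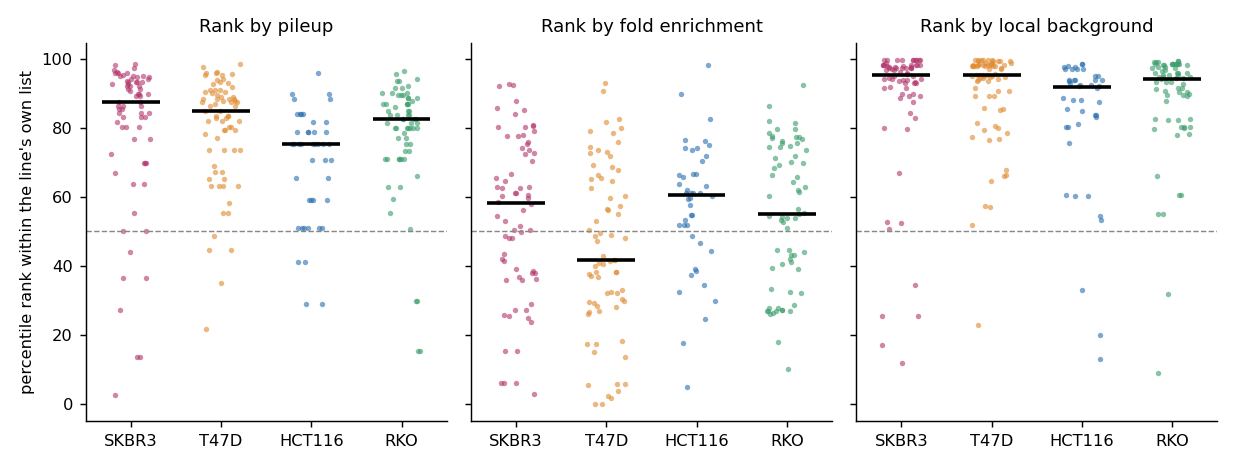
Percentile rank within the line's own list (y axis) of each cluster peak by pileup, by fold enrichment and by local background (panels), for 70, 73, 44 and 68 peaks. Black bars are medians and the dashed line is the middle of the list. By pileup the medians lie between 75.2 and 87.5, by fold between 41.8 and 60.7 and by background between 92.0 and 95.4.

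The regions called in all 4 lines were the stronger and wider ones. Such a choice itself favours strong regions, since each had to be called in every list, also that of the shallow HCT116 library. Over the whole series, 39.3% of regions with a pileup rank of at least 75 in a line were called in all 4 lines, against 11.8% of all regions. The medians that follow were made for the clusters only. The median merged width of the regions of all 4 lines was 768 bp, against 439.5 bp for regions of 3 lines, 303.5 bp for 2 lines and 123 bp for 1 line, though a region merged over more lines can only grow. Where a line had more than 1 peak in a region, its highest pileup stands for the region, here and below. In T47D the 33 regions called in all 4 lines had pileups of 6 to 73 with a median of 44, and the 36 other T47D regions a median of 26.5. In SKBR3 the range was 4 to 49 with a median of 30, against a median of 17.5 in its 32 other regions. In RKO the range was 3 to 39 with a median of 24, against 16 in its 27 others. In HCT116 it was 4 to 22 with a median of 10, against 8 in its 6 others. Across the 33 regions the pileups of T47D and RKO ordered alike (Spearman's rho 0.757), those of SKBR3 and HCT116 least (0.282), and the other pairs lay between 0.496 (SKBR3 and T47D) and 0.645 (T47D and HCT116). These 33 points share their libraries and neighbouring points share local background, so the values are descriptions.

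Of the regions called in all lines, the one with the highest lowest rank lay on chromosome 1, 149857891 to 149858753. Its pileup was 48 for SKBR3, 59 for T47D, 16 for HCT116 and 26 for RKO, and its ranks were 98.4, 95.9, 89.9 and 88.7. In the small cluster, 27860756 to 27861460 had pileups of 25, 52, 15 and 30 in the same order of lines and ranks of 88.3 or higher. In the large cluster the leading regions were neighbours, 26123606 to 26124642 with pileups of 29, 58, 15 and 34 and 26123114 to 26123520 with 30, 39, 16 and 24. The region at 26172050 to 26172378 was narrow, at 329 bp, and differed from these in its fold: it ranked between 84.2 and 89.2 by pileup and between 86.4 and 92.3 by fold, whereas the region at 149857891 ranked between 38.3 and 74.2 by fold. The other 5 of the leading 10 were 26031983 to 26032568 and 27805795 to 27806850 on chromosome 6, and 149832205 to 149833435, 149822200 to 149822967 and 149814065 to 149814700 on chromosome 1. Their lowest ranks lay between 78.8 and 84.2.

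The weakest region shared by all lines lay at 26097608 to 26097832, with pileups of 6, 6, 4 and 3 and ranks of 44.1, 21.6, 28.8 and 15.3. At 26066241 to 26066571 the pileups were 5 for SKBR3, 18 for T47D, 5 for HCT116 and 13 for RKO. The region at 26188933 to 26189585 split the lines most. Its pileup was 4 for SKBR3, 60 for T47D, 22 for HCT116 and 27 for RKO. The SKBR3 summit, at 26189516, was not that of the other lines, at 26189341, 26189349 and 26189346, and the calls were joined by their overlap. The region ranked at 27.3 in SKBR3 and at 96.2, 96.0 and 89.5 in the other 3 lines, a range of 68.9 against a median range of 19.9 over the 33 regions. In HCT116, the shallowest library, 22 tags was the highest pileup of all cluster peaks.

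Regions called in every line but 1 were mostly those missing in HCT116, with 13 of the 82 regions (15.9%, 8.72 to 25.6) against 3.85% of all merged regions. The strongest lay at 26216556 to 26217582, with pileups of 28 for SKBR3, 51 for T47D and 33 for RKO and ranks of 91.4 to 93.5, at 26285324 to 26286208, with 37, 40 and 26, and at 26156458 to 26156917, with 33, 38 and 28. HCT116 had no call at 10 regions in a row between 26225220 and 26257760, a stretch of 32.5 kb. It called the next region, at 26258601 to 26258749, with 4 tags, and then none of 4 in a row up to 26286208. Missing in SKBR3 alone were 2 regions (0.899% of all merged regions), 27862139 to 27862419, with pileups of 32 for T47D, 10 for HCT116 and 30 for RKO, and 26286644 to 26286872, with 16, 6 and 21. Missing in RKO alone was 1 region (2.22% of all), 27858337 to 27858785, with 20 in SKBR3, 30 in T47D and 11 in HCT116. No cluster region was missing in T47D alone (1.25% of all).

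Regions called in both breast lines and in neither colorectal line numbered 11 of 82 (13.4%, 6.89 to 22.7), against 12.4% of all merged regions, so their share was near the background. Regions of both colorectal lines alone numbered 1 (1.22%, 0.0309 to 6.61), against 1.61%. That single region, 26258601 to 26258749, had pileups of 4 in HCT116 and 3 in RKO. Of the 11, 6 stood in 2 short blocks, which are described here because they held such regions and say nothing of how evenly the rest were spread. The first block held 3 regions in 3.90 kb of the large cluster: 26043557 to 26044278, with pileups of 31 in SKBR3 and 40 in T47D, 26045365 to 26045949, with 26 and 32, and 26047264 to 26047455, with 22 and 31. Their ranks were 82.8 or higher in both lines. The second block held 4 regions in 7.37 kb of the small cluster. Of these, 27832889 to 27833422 had pileups of 20 in SKBR3 and 40 in T47D, 27834991 to 27835476 had 19 and 26, and 27839754 to 27840260 had 22 and 30, while 27833928 to 27834107 was called in T47D only, with 14. RKO had no peak between 27807750 and 27860785 (53.0 kb) and HCT116 none between 27806387 and 27858600 (52.2 kb). On either side of that stretch both colorectal lines had peaks, including 15 tags in HCT116 and 30 in RKO at 27860756 to 27861460.

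Of the 13 regions called in 1 line, 10 ranked at 50 or higher by pileup and 3, all of SKBR3, under 50. The same split was not made for all merged regions called in 1 line, so these counts have no background beside them. SKBR3 had 5 (30.5% of all merged regions were called in SKBR3 alone), of which the highest was 26225220 to 26225550 with a pileup of 12 (rank 69.9), followed by 26257597 to 26257760 with 7 and 26184036 to 26184323 with 3. RKO had 4 (14.8% of all), led by 27863063 to 27863175 with 13, 26271275 to 26271384 with 11 and 26173585 to 26173772 with 10. T47D had 3 (11.5% of all): 149812392 to 149812512 on chromosome 1 with 22, and 27863396 to 27863505 and 27833928 to 27834107 on chromosome 6 with 19 and 14. These 3 ranked at 73.5, 68.9 and 58.2 by pileup but at 0.0555, 1.57 and 5.77 by fold. The T47D summit on chromosome 1, at 149812426, has a mirror partner at 149824432, also with 22 tags, as described further on. That partner was merged into 149823202 to 149824500, a region called in all 4 lines. HCT116 had 1 (3.18% of all), 26119329 to 26119439, with 12 tags and a rank of 81.7.

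Neighbouring summits in the clusters were close. The median spacing was 4676 bp in SKBR3 (exact 95% interval of the median 1796 to 6543) against 11204 bp over the list. It was 2013 bp in T47D (1457 to 5427) against 13467 bp, 5465 bp in HCT116 (1667 to 9218) against 25692.5 bp and 1816 bp in RKO (1054 to 5797) against 17638 bp. The intervals of the 4 lines overlap. Few spacings were of middle length. From 2.5 to 4.5 kb there were 1 of 67 spacings for SKBR3, 0 of 70 for T47D, 1 of 41 for HCT116 and 0 of 65 for RKO, against 6.51%, 5.87%, 2.72% and 3.52% of the spacings over the lists; this range was chosen after the spacings were seen, and for HCT116 its share of 2.44% was near that of the list. Spacings under 1 kb made up 33.8% (22.6 to 46.6) in RKO, 17.1% (9.18 to 28.0) in T47D, 14.6% (5.57 to 29.2) in HCT116 and 13.4% (6.33 to 24.0) in SKBR3, against 12.9%, 12.4%, 8.24% and 10.5% of the lists. Of the 22 such spacings of RKO, 11 lay in the large cluster, 4 in the small cluster and 7 on chromosome 1. Mirrored copies on chromosome 1, described further on, may count some of them more than once. More regions of RKO than of the other lines held 2 or more separate peaks, 6 against 4 in each of SKBR3, T47D and HCT116.

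**Figure D4:**
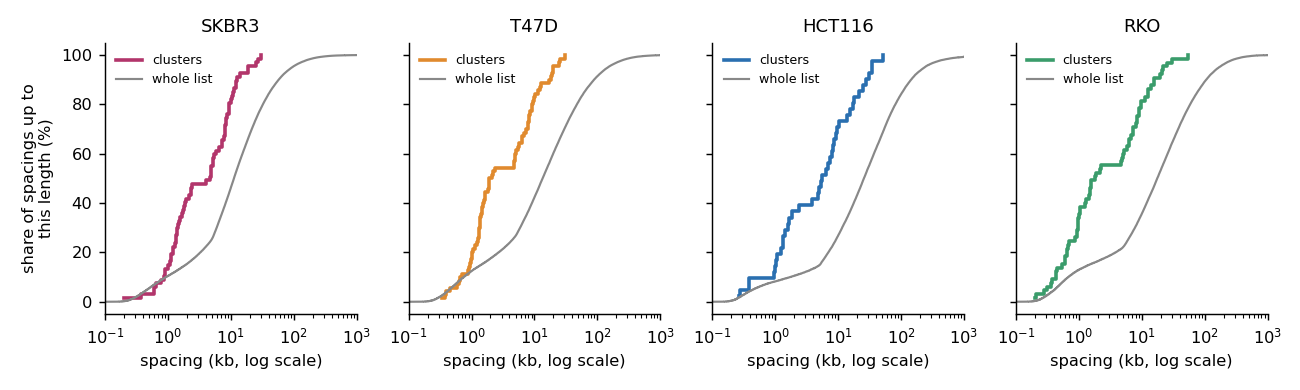
Cumulative share of spacings between neighbouring summits (y axis, percent) by length (x axis, kb, log scale), for the clusters (67, 70, 41 and 65 spacings) and the whole list of each line. The cluster curves lie left of the list curves, with medians of 1816 to 5465 bp against 11204 to 25692.5 bp, and hold 1, 0, 1 and 0 spacings between 2.5 and 4.5 kb.

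Between the peaks lay stretches that no line called. The longest were 27807750 to 27832888 (25.1 kb) and 27840261 to 27858336 (18.1 kb) in the small cluster, 149833436 to 149857191 (23.8 kb) on chromosome 1, and 26067965 to 26087538 (19.6 kb), 26104576 to 26119328 (14.8 kb) and 26258750 to 26271274 (12.5 kb) in the large cluster. Windows of 100 kb that touch the clusters also take in regions beside them. Chromosome 1, 149800001 to 149900000, had 10 regions called in all 4 lines, 9 of them in the cluster. A number of 10 was reached by 12 of the 26310 windows with a region (0.0456%). Mirrored copies, described further on, may count some sequences of this window more than once. Chromosome 6, 26000001 to 26100000, held 8, all in the cluster, and 27700001 to 27800000 held 8, of which 5 in the cluster; 8 was reached by 0.262% of windows. The window 26100001 to 26200000 held 7 (0.498%). The next windows were less dense in shared regions, with 2 at 26200001 to 26300000 (reached by 18.8% of windows) and 3 at 27800001 to 27900000 (8.55%), 2 of them in the cluster.

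Summits on chromosome 1 were arranged as mirror images. In each line, most summits left and right of 149818471 lay at equal distances, a pattern found after the positions were seen. Counting summits as partners where their distances differed by at most 100 bp gave 14 pairs, of which SKBR3 had 3, T47D 4, HCT116 3 and RKO 4. They took in 28 of the 32 summits on this side of the long stretch without peaks. The outermost pair was 149804283 and 149832583 for SKBR3, 149804161 and 149832782 for T47D, 149804167 and 149832779 for HCT116, and 149804429 and 149832462 for RKO, so that the arms were 14.02 to 14.31 kb long. The pileups of the outermost pair, left arm first, were 40 and 38 for SKBR3, 44 and 45 for T47D, 10 and 13 for HCT116 and 23 and 27 for RKO. The pair with arms of about 4 kb had pileups of 67 and 59 for T47D, 11 and 13 for HCT116 and 39 and 31 for RKO. In SKBR3 the summits of those regions, with 42 and 37 tags, missed that tolerance. The least alike of the 14 pairs was 149812796 and 149824083 in HCT116, with 10 and 5 tags.

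**Figure D5:**
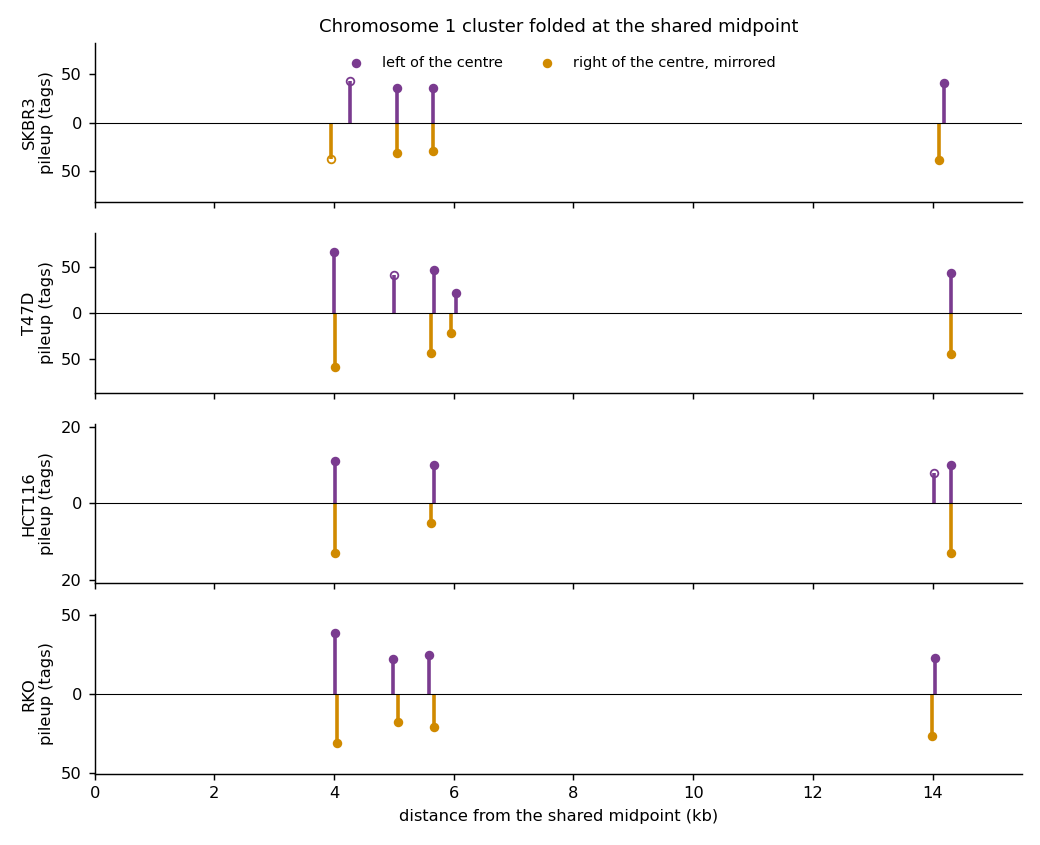
Pileup in tags (y axis) of the 32 chromosome 1 summits before the long stretch without peaks, by distance in kb from the shared midpoint (x axis), with the left arm drawn upward and the right arm, mirrored, downward, for 1 library per line. Filled points are the 28 summits whose partner lies at the same distance within the tolerance, and open points have none. Scales of the y axes differ between lines.

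The genes there are mirrored in the same way. By the order of their starts in RefSeq (GRCh38.p14) they run H4C14 (plus strand), H3C14 (minus), H2AC18 (minus), H2AC19 (plus), H3C15 (plus) and H4C15 (minus). Promoters of H4C14 and H4C15 were identical over all 300 bases, those of H2AC18 and H2AC19 shared an unbroken run of 299 bases and those of H3C14 and H3C15 one of 296. Between H4C14 and the 9 other H4 genes of the clusters with a sequence, the longest shared run was 8 to 10 bases. A read of 60 bp from such a copy can be placed in either arm, and the sources used here do not say how reads with more than 1 best place were handled. Pileups of the 2 arms therefore cannot be told apart, and the 9 of 11 regions called in all lines on chromosome 1 may count some sequences more than once. Without this cluster, 24 of 71 regions (33.8%) were called in all 4 lines, against 11.8% of all merged regions. Coding sequences of the other histone genes are also alike within a type, and peaks over them may carry the same uncertainty.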

How the data were processed

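Open chromatin was measured by ATAC-seq in 4 cell lines, 1 library each. The submitters' processing notes name hg19, Bowtie2 2.4.1 and MACS3 3.0.0b3. MACS3 ran once per library with no control, a q cutoff of 0.1 and 1 tag kept per position, per the file headers; no shift to the cut site is named. The deposited columns used were position, pileup signal (tags at the summit, not scaled between libraries), fold ratio over local background, and −log10 of the q-value, all from the authors' run; the deposited −log10 p-value was not needed. From these, peaks on chromosomes 1 to 22 and X were ranked within lists and merged with Python 3.11.15 and pandas 2.3.3; intervals came from scipy 1.17.1. Local background was recovered as (pileup + 1) / fold − 1. The merging code was run on simulated data, and 0 of 3000 regions were given a wrong pattern. Simulated peaks of 1 region always overlapped and those of neighbouring regions never did. The run therefore checked the code and cannot show how often real neighbouring peaks are joined. Each line is its own group, and no p-value is given.

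Members, lists and rules were chosen with earlier results of these data known. Regions named are the 10 highest and 3 lowest called in all lines by their lowest pileup rank, and the 3 strongest called in 1 line or missing in 1 line. Alternatives were stricter q thresholds, lists of equal length, the largest cluster alone, merging by summit, HCT116 not asked for, and ranking by fold. Calls at annotated gene starts and motifs around summits were not run, since they need an hg19 annotation and genome.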

Additional observations from a re-analysis of the deposited data

How the results depend on the processing

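With −log10 q held to 10 or more, 5 of 56 regions were called in all 4 lines, and SKBR3 had 38 cluster peaks, HCT116 6 and RKO 35. Median spacing was then 8222 bp in SKBR3, 4932.5 bp in T47D, 25515 bp in HCT116 and 9954 bp in RKO, and the median pileup rank among the remaining peaks 77.5 for SKBR3, 75.1 for T47D, 46.97 for HCT116 and 58.3 for RKO. The cause was not tested. With lists of equal length SKBR3 had 44 peaks and a median spacing of 7185 bp, T47D one of 4865 bp, and the median ranks were 79.5 for SKBR3, 76.7 for T47D and 72.9 for RKO; 28 of 67 regions (41.8%) were called in all lines, against 16.2% of all. The largest cluster alone held 17 regions called in all lines and 44 peaks for T47D, 25 for HCT116 and 42 for RKO, as fewer kb were counted. Ranking by fold gave medians of 58.2 for SKBR3, 41.8 for T47D, 60.7 for HCT116 and 55.2 for RKO. Without chromosome 1, an alternative added after seeing the data, these were 60.3, 47.2, 60.7 and 60.2. Merging summits within 150 bp gave 24 of 107 regions (22.4%) in all lines, against 10.3% of all, and not asking for HCT116 gave 46 of 82 (56.1%), against 15.6%. Of 75 comparisons with the main values, 47 stayed within their interval or within 1.5 times, among them all 13 with −log10 q held to 2 or more. That threshold left 69 of 70 cluster peaks for SKBR3 and 43 of 44 for HCT116, so little could move. Regions called in all lines were compared by count and not by share. Merging by summit thus stayed within 1.5 times, though its share was 22.4% against 40.2%. Gene starts were not run, for want of an hg19 annotation. No paired analysis was possible because each line has 1 library.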

Other observations

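Open chromatin did not end at the limits of the clusters. In the large cluster SKBR3 had 16.8 peaks per 100 kb, against 13 in the 50 kb on either side, T47D 15.7 against 10, HCT116 8.93 against 8 and RKO 15 against 14. The small cluster held 12 peaks per 100 kb for SKBR3, 17 for T47D, 9 for HCT116 and 13 for RKO, and its flanks 9, 10, 7 and 9. The chromosome 1 cluster held 15.7, 17.1, 14.3 and 18.6 peaks per 100 kb in the same order of lines, and its flanks 12, 13, 7 and 9. Its mirrored copies may count some sequences more than once. The clusters were denser than their flanks in every line, by the least in the large cluster of HCT116 and RKO. The flank values rest on 7 to 14 peaks per line and cluster, without intervals. Whether the flanks hold histone genes was not checked. Peaks covered 7.27% of the 450 kb for SKBR3, 7.15% for T47D, 2.16% for HCT116 and 6.27% for RKO.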
